A study of Homo sapiens with 2 samples.

Results

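The 6 genes described here are PLAU, PLAUR, PLAT, SERPINE2, SERPINB2 and PRSS23. They comprise the activators and the receptor of the plasminogen activation system, a pair of its inhibitors, and the serine protease PRSS23. They were chosen by gene symbol, with earlier results of these data known. Every probe that names only the one gene was taken. This gave 10 of the 25650 probes that name a single gene and 6 of 19414 genes. PLAU, PLAT and SERPINB2 had 1 probe each, SERPINE2 and PRSS23 had 2 each and PLAUR had 3. Transcripts were measured on single-colour Cy5 microarrays in A375SM, a highly metastatic line of human melanoma cells. Cells transduced with lentivirus expressing an NFAT1 shRNA (a short hairpin RNA that directs degradation of its target transcript) were set against cells carrying a non-targeting (NT) shRNA. NFAT1, whose gene is NFATC2, is a transcription factor switched on by calcium signals. Both lines had been sorted for the brightest 50% of GFP-expressing cells and grown in the same serum-containing medium. Each line was run as 3 biological replicates per the design text. The table used here holds 1 combined value per probe and line beside an error, so replicate spread is not shown in it. The sources used here do not say whether the replicates were separate transductions or how many hairpins were used.

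Plasminogen is a circulating proenzyme that tissue-type (PLAT) and urokinase-type (PLAU) activators cut into plasmin, a protease that degrades fibrin and matrix glycoproteins and activates other proteases and growth factors. Urokinase works mainly at the cell surface, bound to its lipid-anchored receptor PLAUR, and serpins stop the activators by forming covalent complexes with them. Melanoma cells are known to make tissue-type activator, and the pathway is studied there for its part in invasion.

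The array read 29187 probes, of which 9185 were detected in NFAT1-shRNA cells and 8783 in NT-shRNA cells at a detection p-value under 0.01. The authors' log2 ratio (NFAT1-shRNA over NT-shRNA) was available for 9516 genes, each represented by its brightest probe. The detected probe of NFATC2, the targeted gene, was not lower in cells labelled NFAT1-shRNA, where it read 279.2 (error 15.7), against 199.4 (error 15.2) in NT-shRNA cells. The authors' deposited table gave this NFATC2 probe a log2 ratio of 0.12 (95% interval -0.15 to 0.39). With the plain quotient of the intensities, which is not centred, the probe stood at 0.49 and passed as higher (adjusted p 0.00386). This was the only 1 of 8 alternatives under which it passed. The other NFATC2 probe, detected in neither line, read 41.6 (error 9.55) in NFAT1-shRNA cells and 57.8 (error 10.6) in NT-shRNA cells, values that overlapped within their errors. All directions are therefore those between the lines as labelled. All 8 melanocyte lineage markers were detected in at least 1 line, TYRP1 in NFAT1-shRNA cells only. TYR and DCT rose, and MLANA, PMEL, SOX10, MITF and S100B did not pass. Of the markers of other cell types, the keratinocyte genes KRT10 and KRT14, the fibroblast gene LUM and the leukocyte gene CD68 were detected in both lines and did not pass. COL1A2 was detected in NT-shRNA cells only. The rest were detected in neither line on their brightest probe: 2 of 4 keratinocyte, 3 of 5 fibroblast, 3 of 4 leukocyte and all 4 endothelial markers.

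Of the 6 genes, PRSS23 and the urokinase receptor PLAUR fell on their brightest probes, and the inhibitor SERPINB2 rose. The other detected probes of PRSS23 and PLAUR did not pass. The PLAUR call also depended on the centring of the ratio, and the SERPINB2 call on the error used with the authors' ratio. The tissue-type activator PLAT and the inhibitor SERPINE2 were bright in both lines and did not pass, and urokinase (PLAU) was detected in neither line. Of the 5 members with a ratio, 3 passed an adjusted p under 0.05, against 7.55% of all 9516 genes. By direction, 2 members were lower and 1 higher, where 4.19% of all genes were lower and 3.35% higher. The members were chosen with earlier results of these data known, so these shares are a description and not a test of the set. The p-values are those of the authors' deposited table, adjusted after Benjamini and Hochberg across these 9516 genes, and they are only as firm as the authors' calculation, which the sources used here do not describe. Of the 10 probes, 6 were detected in both lines, 1 in NFAT1-shRNA cells only and 3 in neither, and 7 had a ratio. Over probes, 3 of the 7 passed when p-values were adjusted over all 11362 probes with a ratio, against 7.02% of those probes. Of these, 2 were lower and 1 higher, where 3.78% of all probes were lower and 3.24% higher. SERPINB2 had a detected signal only in the line where it was higher. The array reads RNA of whole cultures, so fewer expressing cells and less RNA per cell cannot be told apart.

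**Figure D1:**
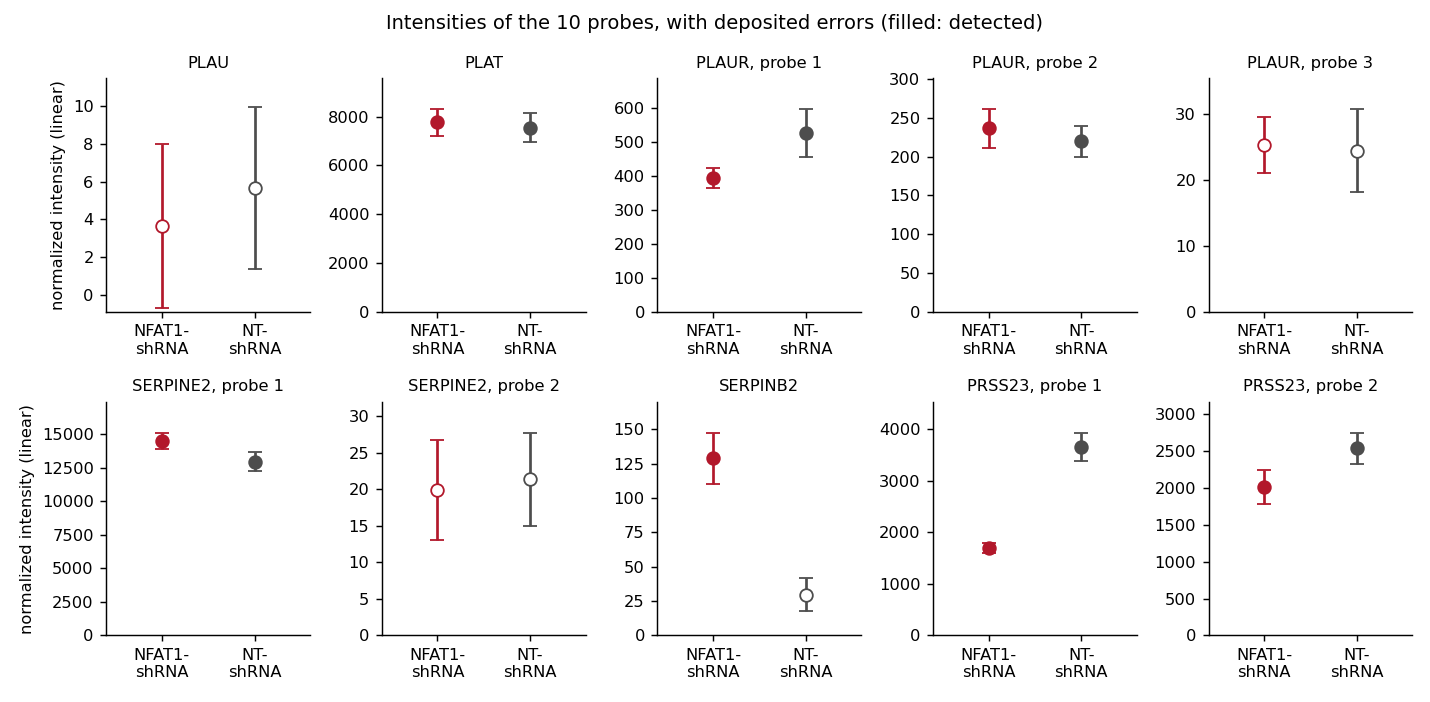
Normalized intensity (linear scale, 1 panel per probe, each with its own axis) of the 10 member probes in NFAT1-shRNA cells (left in each panel) and the NT-shRNA line (right). Points are the authors' combined values, bars the deposited errors, and open points were not detected; probe 1 of each gene is its brightest. PRSS23 probe 1 reads 1700 in NFAT1-shRNA cells against 3660 in NT-shRNA cells, SERPINB2 reads 128.9 in NFAT1-shRNA cells against 29.6 in NT-shRNA cells, and the PLAT values overlap within their errors.

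The promoters of the 3 genes that passed are shown because the study targets NFAT1, whose family binds the core GGAAA, often beside AP-1, which binds TGANTCA. RefSeq promoter sequences (GRCh38.p14) were matched for 5 of the 6 genes. PLAT was not matched. The 250 bases before each annotated start site are given 5′ to 3′ on the gene's own strand, with every GGAAA on either strand (TTTCC on the other) and every TGANTCA, which reads as the same pattern on both strands, in capitals. PLAUR lies on the minus strand of chr19:43670170-43670419, SERPINB2 on the plus strand of chr18:63887455-63887704, and the start sites of PRSS23 on the plus strand of chr11:86790821-86791070 and chr11:86800292-86800541.
PLAUR: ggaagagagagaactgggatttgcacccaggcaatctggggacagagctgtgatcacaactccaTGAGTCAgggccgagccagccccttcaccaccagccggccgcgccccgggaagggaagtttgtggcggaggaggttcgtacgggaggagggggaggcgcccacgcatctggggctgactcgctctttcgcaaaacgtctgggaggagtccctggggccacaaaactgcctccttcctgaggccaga
SERPINB2: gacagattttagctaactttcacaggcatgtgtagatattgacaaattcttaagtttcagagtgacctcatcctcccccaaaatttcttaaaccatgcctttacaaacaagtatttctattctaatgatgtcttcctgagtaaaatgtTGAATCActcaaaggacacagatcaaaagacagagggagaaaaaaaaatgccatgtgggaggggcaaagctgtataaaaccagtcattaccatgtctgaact
PRSS23, upstream start: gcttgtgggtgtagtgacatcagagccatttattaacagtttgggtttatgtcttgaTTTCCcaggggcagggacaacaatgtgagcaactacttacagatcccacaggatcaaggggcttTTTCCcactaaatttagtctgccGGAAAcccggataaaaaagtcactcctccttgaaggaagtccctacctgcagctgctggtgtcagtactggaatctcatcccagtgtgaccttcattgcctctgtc
PRSS23, other start: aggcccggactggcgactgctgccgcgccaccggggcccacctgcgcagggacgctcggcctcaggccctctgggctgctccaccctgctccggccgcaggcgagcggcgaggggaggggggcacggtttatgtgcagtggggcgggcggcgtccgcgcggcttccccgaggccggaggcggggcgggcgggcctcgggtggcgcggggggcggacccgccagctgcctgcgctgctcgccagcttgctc
PLAUR and SERPINB2 each held 1 TGANTCA and no GGAAA in this window. PLAUR fell and SERPINB2 rose. The upstream PRSS23 start held 3 GGAAA and no TGANTCA, and its other start held neither. Of the members not shown, SERPINE2 and PLAU each had 1 start with 1 GGAAA and no TGANTCA, and 1 start with neither. None of these windows held both motifs, so no overlap between them was possible. Of 35116 promoter windows of this length, 55.6% held a GGAAA and 6.57% a TGANTCA, so GGAAA is found in most windows. A match is a description of these letters only, and no binding was measured here.

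Among the activators, the PLAU probe (Entrez gene 5328) read 3.63 (error 4.35) in NFAT1-shRNA cells and 5.67 (error 4.32) in NT-shRNA cells. Both values were close to their errors, the detection p-value was 1 in each line, and no ratio was given. An undetected probe does not show that a transcript is absent: the single probe of HMGB1, a chromatin protein made by nearly all cells, read 6.32 and 7.45 in NFAT1-shRNA and NT-shRNA cells and was detected in neither (HMGB1 is named after its values were seen). PLAT (Entrez gene 5327) was bright, with 7762 (error 551.0) in NFAT1-shRNA cells against 7545 (error 594.8) in NT-shRNA cells. The values with their errors overlapped. In the authors' deposited table its ratio was -0.18 on the log2 scale (adjusted p 0.612), and the deposited errors put its 95% interval at -0.48 to 0.12. A PLAT difference anywhere in that interval is compatible with the deposited errors.

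The receptor PLAUR (Entrez gene 5329) fell on its brightest probe. That probe read 393.5 (error 30.2) in NFAT1-shRNA cells and 525.5 (error 71.1) in NT-shRNA cells, and the values did not overlap within their errors. The NT-shRNA error was 13.5% of the signal, against a median of 9.63% for genes of that line with a mean intensity over 100. The log2 ratio per the authors' deposited table was -0.74 (interval -1.18 to -0.30, adjusted p 0.00508), a level 1.67-fold higher in NT-shRNA cells. The probe ranked 234 from the lowest of the 9516 ratios. The next PLAUR probe did not pass: it read 236.5 (error 25.1) in NFAT1-shRNA cells and 219.9 (error 19.8) in NT-shRNA cells, values that overlapped within their errors. The authors' deposited table gave it a log2 ratio of -0.26 (interval -0.66 to 0.13, p adjusted over all probes 0.539). These probes name the same RefSeq transcripts. The difference between their log2 ratios, brightest minus other, was -0.47 with an interval of -1.06 to 0.12, so it did not exceed the errors. The remaining PLAUR probe, which names another RefSeq transcript, read 25.3 and 24.5 in NFAT1-shRNA and NT-shRNA cells and was detected in neither.

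The call of PLAUR also depended on the centring of the ratio. Intensities were 1.23-fold higher in NFAT1-shRNA cells for the median gene. With the plain quotient of the intensities, the brightest PLAUR probe stood at -0.42 on the log2 scale with an adjusted p of 0.163, and the next probe at 0.11.

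Of the inhibitors, SERPINE2 (Entrez gene 5270), or protease nexin-1, which blocks thrombin, urokinase and tissue-type activator, had 1 detected probe, which read 14526 (error 610.1) in NFAT1-shRNA cells and 12959 (error 699.4) in NT-shRNA cells. These intensities did not overlap within their errors, but the gap was smaller than the shift of the median gene. In the authors' deposited table its ratio was 0.0052 on the log2 scale (interval -0.19 to 0.20, adjusted p 0.996). Its sign depended on the scale. The other SERPINE2 probe, which names 1 of the 3 transcripts of the first, read 19.9 and 21.4 in NFAT1-shRNA and NT-shRNA cells and was detected in neither.

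SERPINB2 (Entrez gene 5055), or plasminogen activator inhibitor 2, rose. It read 128.9 (error 18.7) in NFAT1-shRNA cells against 29.6 (error 12.03) in NT-shRNA cells, where its detection p-value was 0.898. The values lay well apart, but the NT-shRNA value was below the lowest detected signal of that line, 60.4. With the shift of the median gene removed, the SERPINB2 value in NFAT1-shRNA cells was 1.73-fold above that lowest signal. This fold leaves out the errors and is not a strict lower limit. The adjusted p was 0.0184 in the authors' deposited table. The log2 ratio entered for SERPINB2 in the authors' deposited table was 1.13 and the plain quotient of its intensities 2.12, and with the NT-shRNA signal not above background neither gives the size of the change. The ratio stood 0.99 below the quotient, where the median offset over 11362 probes was -0.33 and 113 probes lay as far from that median. The errors behind the call differed too. The authors' p-value implies a standard error of 0.34, while the deposited errors give 0.62, which gives an interval of -0.09 to 2.35 (adjusted p 0.299). With the authors' ratio, the call of SERPINB2 thus depended on which error was used. With the quotient and the deposited errors it passed again, at an adjusted p of 0.0393 when median-centred and 0.0438 when centred on genes of like intensity.

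PRSS23 (Entrez gene 11098), a secreted trypsin-like serine protease, fell. Its brightest probe read 1700 (error 98.4) in NFAT1-shRNA cells and 3660 (error 274.4) in NT-shRNA cells. The gap was several times either error. The log2 ratio per the authors' deposited table was -1.36 (interval -1.63 to -1.09, adjusted p 5.12e-23), a level 2.57-fold higher in NT-shRNA cells. It ranked 25 from the lowest of the 9516 ratios. The other PRSS23 probe was also lower but did not pass. It read 2011 (error 225.4) in NFAT1-shRNA cells and 2533 (error 215.7) in NT-shRNA cells, with no overlap within the errors. The authors' deposited table gave it a log2 ratio of -0.58 (interval -0.98 to -0.18, unadjusted p 0.00973, p adjusted over all probes 0.0986). The ratios of the PRSS23 probes differed by more than their errors: brightest minus other was -0.78 with an interval of -1.26 to -0.30, and -0.77 with the plain quotient. Both probes name the same RefSeq transcript but different Ensembl transcripts. Averaged over both probes, the log2 ratio was -0.97.

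**Figure D2:**
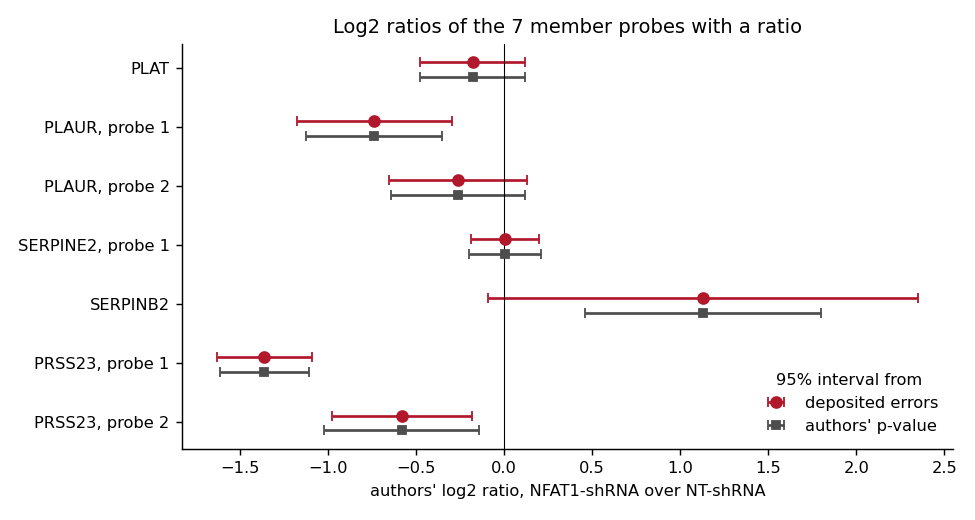
The authors' log2 ratio (horizontal axis, NFAT1-shRNA over NT-shRNA) of the 7 member probes with a ratio. Each has a 95% interval from the deposited errors (circles) and one from the error that the authors' p-value implies (squares). Both intervals fall on the same side of, or both include, 0 for 6 probes, while for SERPINB2 the first includes 0 and the other does not, and the PRSS23 probes stand apart at -1.36 and -0.58.

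**Figure D3:**
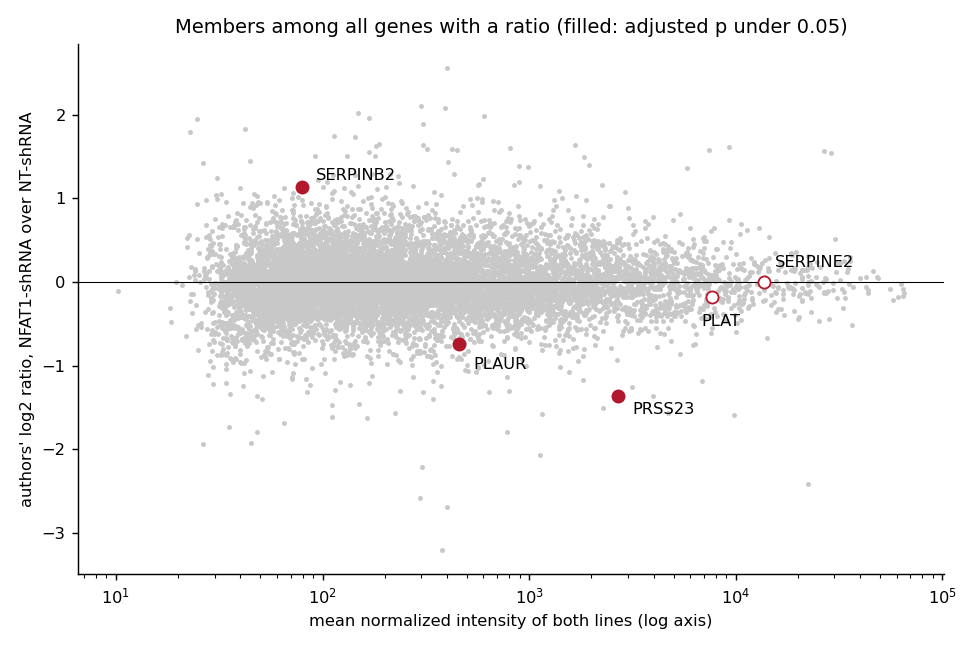
The authors' log2 ratio (vertical axis) against the mean normalized intensity of both lines (horizontal, log axis) for the 9516 genes with a ratio, in grey, with 5 members marked. Filled members passed an adjusted p under 0.05. PRSS23 lies near the lower edge of genes of its intensity, SERPINB2, not detected in NT-shRNA cells, near the upper edge among dim genes, and PLAT and SERPINE2 in the middle of the bright genes.

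The other genes of the pathway were taken from lists. These were chosen with earlier results of these data known, so the counts per list are a description. Over all 9516 genes, 7.55% passed, with 3.35% higher and 4.19% lower, and the median log2 ratio was -0.02. Of 15 genes of plasmin generation, 5 were detected in at least 1 line and 7 had a ratio. PLAUR fell, none rose and 6 did not pass. The median log2 ratio was -0.18, against -0.02 over all genes. This list holds the members PLAU, PLAT and PLAUR. Without members, 5 genes had a ratio, with a median of 0.14, and none passed. This median is the ratio of PLGRKT, which was detected in neither line. ENO1 and ANXA2, which bind plasminogen at the cell surface, had -0.21 and -0.43 on the log2 scale per the authors' deposited table and did not pass. With the median-centred quotient ENO1 passed as lower, at -0.38 on the log2 scale (adjusted p 0.012). A2M, a broad protease inhibitor of plasma, was detected in NFAT1-shRNA cells only. With the shift of the median gene removed, it was 1.82-fold above the lowest detected NT-shRNA signal. It did not pass (adjusted p 0.0541), but passed under 6 of 7 alternatives, with adjusted p-values of 0.000148 to 0.0568. Plasminogen itself (PLG) was detected in neither line on the brightest of its 3 probes, and neither was the plasminogen receptor PLGRKT; both are named after their values were seen.

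Of 11 inhibitors of plasminogen activators, plasmin and related proteases, 8 had a ratio. SERPINB2 and SERPINA5 rose, SERPINB6 fell and 5 did not pass, with a median log2 ratio of 0.04 against -0.02 over all genes. Without the members SERPINB2 and SERPINE2, 6 genes had a ratio, 1 higher and 1 lower, with a median of -0.15. SERPINA5, the protein C inhibitor, which also blocks urokinase, read 1159 (error 69.2) in NFAT1-shRNA cells and 629.8 (error 46.1) in NT-shRNA cells. The authors' deposited table gave it a log2 ratio of 0.57 (adjusted p 5.37e-05). SERPINB6, an intracellular inhibitor of cathepsin G and other serine proteases, read 814.5 (error 45.9) in NFAT1-shRNA cells and 1003 (error 70.7) in NT-shRNA cells. The authors' deposited table gave it a log2 ratio of -0.61 (adjusted p 0.000523). With the plain quotient SERPINB6 stood at -0.30 and did not pass. SERPINB8, an inhibitor of furin, had -0.37 in the authors' deposited table and did not pass (adjusted p 0.0488 with the propagated error). Among 21 other serpins, of which 5 had a ratio, the collagen chaperone SERPINH1 (HSP47) rose, by 0.52 on the log2 scale per the authors' deposited table (adjusted p 0.0363), and the other 4 did not pass. With the median-centred quotient SERPINH1 stood at 0.47 and did not pass (adjusted p 0.0605). The second SERPINH1 probe had 0.47 in the authors' deposited table and did not pass. The list's median was 0.14.

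The next list held cell-surface partners of urokinase and its receptor. Of 24 endocytic receptors, integrins and other partners, 16 had a ratio, and LRP8 alone passed, with a median of 0.13. LRP8, an endocytic receptor of the LDL receptor family, fell by 0.54 on the log2 scale in the authors' deposited table (adjusted p 0.000376), and with the plain quotient it stood at -0.23 and did not pass. The integrin subunit ITGB1 had 2 detected probes with log2 ratios of 0.76 and -0.25 per the authors' deposited table, and neither passed. ITGA3 had 0.37 in the authors' deposited table and did not pass. SORL1, a sorting receptor, read 117.4 (error 9.79) in NFAT1-shRNA cells and 66.0 (error 9.31) in NT-shRNA cells, where it was not detected, and it did not pass (adjusted p 0.315).

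Of 71 secreted and membrane serine proteases, 69 had a probe, 9 were detected in at least 1 line and 19 had a ratio. PRSS23 fell and none of the other 18 passed, whose median was -0.25 against -0.02 over all genes. The proprotein convertases PCSK7 and FURIN had 0.63 and 0.55 on the log2 scale per the authors' deposited table and did not pass (adjusted p 0.106 and 0.201). Each passed as higher under 4 of 8 alternatives. With the quotient centred on genes of like intensity, the adjusted p-values were 0.0475 and 0.037. FAP, a membrane-bound prolyl protease, had -0.46 in the authors' deposited table (interval -1.09 to 0.18) and did not pass.

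Of 24 protease-activated receptors and regulators of coagulation, 12 had a ratio. PROCR, PROS1 and APLP2 rose, none fell and 9 did not pass, with a median of 0.13. Over all genes, 3.35% were higher and 4.19% lower, and the median was -0.02. APLP2, an amyloid precursor-like protein with a protease inhibitor domain in some isoforms, read 2019 (error 95.9) in NFAT1-shRNA cells and 778.1 (error 46.7) in NT-shRNA cells. The authors' deposited table gave it a log2 ratio of 1.09 (interval 0.87 to 1.30). PROCR, the receptor of protein C, had 0.57 and 0.64 on its 2 probes per the authors' deposited table, and both passed. PROS1 (protein S, a cofactor of protein C) had 0.33 per the authors' deposited table (adjusted p 0.0454), and it passed under 4 of 8 alternatives. Thrombomodulin (THBD) and the thrombin receptor F2R had -0.55 and 0.34 on the log2 scale per the authors' deposited table and did not pass. The clotting factor subunit F13A1, not detected in NFAT1-shRNA cells, read 81.1 there and 86.9 in NT-shRNA cells and did not pass.

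Among 26 genes of proteins that plasmin or urokinase is known or reported to cut or activate, or that lie downstream of them, 19 had a ratio. HGF and SPP1 rose, FN1, IGFBP3 and MMP3 fell and 14 did not pass, with a median of -0.04. The median over all genes was -0.02, with 3.35% of them higher and 4.19% lower. IGFBP3, a carrier of insulin-like growth factors, read 1264 (error 52.1) in NFAT1-shRNA cells and 2362 (error 124.8) in NT-shRNA cells. The authors' deposited table gave log2 ratios of -1.17 and -1.03 on its 2 probes. Per the authors' deposited table, the matrix glycoprotein FN1 had -1.51 and the secreted phosphoprotein SPP1 had 0.99. The HGF probes disagreed, with 1.89 and -0.10 in the authors' deposited table. MMP3, a matrix protease, had no detected signal in NFAT1-shRNA cells. With the shift of the median gene removed, its NT-shRNA value was 1.47-fold above the lowest detected NFAT1-shRNA signal. LAMB1, THBS1 and BMP1 had -0.46, -0.37 and 0.32 in the authors' deposited table and did not pass, while LAMB1 passed as lower with the median-centred quotient (adjusted p 0.0208).

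**Figure D4:**
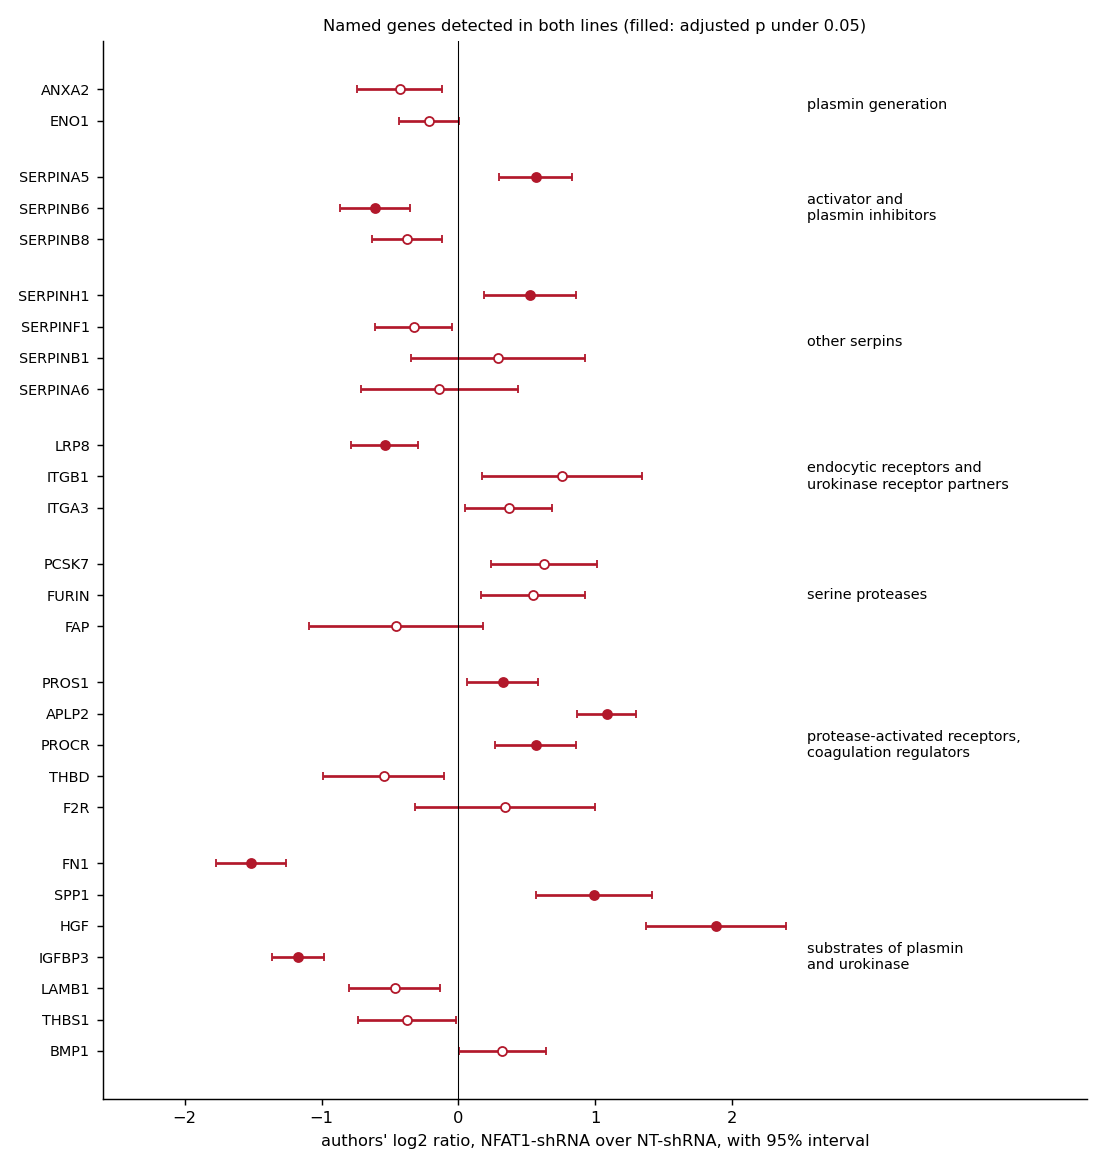
The authors' log2 ratio (horizontal axis, NFAT1-shRNA over NT-shRNA) with its 95% interval from the deposited errors for the genes named from each list that were detected in both lines, other than the 6 members. Filled points passed an adjusted p under 0.05. The protein C genes PROCR and PROS1 and the inhibitor SERPINA5 lie to the right, and LRP8 and SERPINB6 to the left. Genes of the list of known or reported targets of plasmin and urokinase, or genes downstream of them, lie on both sides. Of these, FN1 is at -1.51 and SPP1 at 0.99. HGF is drawn at 1.89, the ratio of its brightest probe, while its other probe had -0.10.

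**Figure D5:**
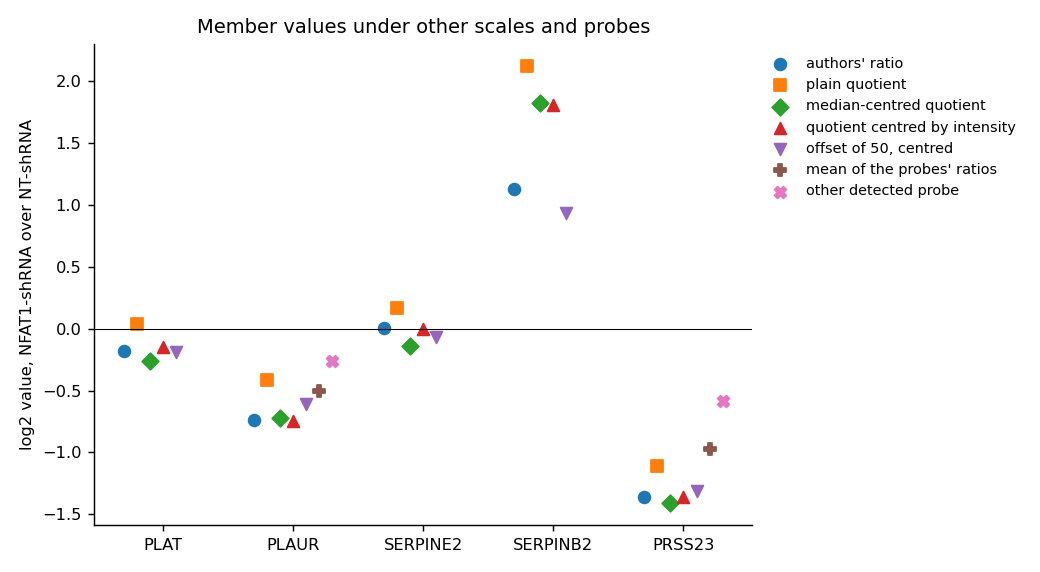
The log2 value (vertical axis, NFAT1-shRNA over NT-shRNA) of the 5 members with a ratio under each scale and, for PLAUR and PRSS23, with the other detected probe and the mean of the ratios of the probes. PRSS23 and PLAUR lie below 0 and SERPINB2 above 0 under each one shown, SERPINB2 between 0.94 and 2.12, while PLAT and SERPINE2 lie on both sides of 0.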

How the data were processed

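The NFAT1-shRNA and NT-shRNA lines of A375SM were compared, with RNA integrity numbers of 9.3 to 9.9 per the labels. The labels name an Illumina chip and also Cy5-coupled amplified RNA, so the array maker is unclear. The authors deposited, per the file headers, a detection p-value, a normalized intensity (linear scale) and an error for each probe and line, and a log2 ratio with its p-value. How values were normalized and replicates combined, and what kind of error it is, the sources used here do not say. The series matrix held the same intensities.

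Probes naming 1 gene were kept (25650, of which 25400 matched a RefSeq gene table of GRCh38.p14 by Entrez number), and the brightest probe stood for a gene. The test planned for values per array could not be run, so the authors' p-values were adjusted (Benjamini-Hochberg, all 9516 genes with a ratio). Intervals are 95%, from the deposited errors. A bound sets the detected value against the higher of the other line's value and its lowest detected signal (78.3 in the NFAT1-shRNA line, 60.4 in the NT-shRNA line), with the shift of the median gene (0.30 on the log2 scale) removed. The number of arrays limits the precision. The members and lists were chosen with earlier results of these data known. Genes named are the members, every list gene that passed, and up to 3 others per list with the largest absolute ratio among those detected. The cell type markers are named as a check of the cultures, and HMGB1, PLG and PLGRKT after their values were seen. Calculations used Python 3.11.15, pandas 2.3.3 and scipy 1.17.1, and were tested on simulated data. Alternatives were other scales, offsets, adjustments, filters and probes. The result of a single gene of the lists is not reported here.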

Additional observations from a re-analysis of the deposited data

How the results depend on the processing

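Over the whole table, 718 genes passed, and 2278 with the plain quotient of the intensities, where 93.5% of calls were higher against 44.4% with the authors' ratio. The other settings gave between 703 and 922. On the plain quotient PLAUR stood at -0.42 (adjusted p 0.163) and PLAT turned to 0.041. SERPINE2 turned to -0.14 with the median-centred quotient, -0.0010 when centred on genes of like intensity and -0.066 with an offset of 50, and passed under none. With the other detected probe PLAUR stood at -0.26 and PRSS23 at -0.58, neither past the threshold, and with the mean of the probes at -0.50 and -0.97. SERPINB2, at 1.13, lost its call with the propagated error (adjusted p 0.299) and has no value among genes detected in both lines. The cause of these changes was not tested. PRSS23 kept its direction in all settings, and its call in all 8 others with a test on its brightest probe, at log2 values of -1.41 to -1.11. PLAUR kept its call in 7 settings and SERPINB2 in 6. The propagated error and the other probe were added after seeing the data. The plain quotient also gave calls to NFATC2, BMP1, ITGA3, ITGB1, SORL1, LUM, SOX10 and S100B. CD68 passed with the plain quotient, with the median-centred quotient and with the offset. No paired analysis was possible because each line has 1 combined value per probe. Low signal limits PLAU and SERPINB2, neither of which was detected in the NT-shRNA line.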
